A study of Rattus norvegicus with 9 samples.

Results

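The mitochondrial genome of the rat is represented in the expression table by 37 genes of 34092, taken here by a single rule, their annotation to the mitochondrial chromosome (MT, build Rnor_6.0 in the submitters' processing notes). They are 13 protein-coding genes, 2 rRNA genes and 22 tRNA genes, and 34 of them reached a mean of at least 0.5 fragments per kilobase of gene, scaled for depth (FPKM), over the 9 libraries and were tested. The 3 genes left out of testing were tRNA genes, with no more than 2 fragments in any library. RNA came from wild-type primary neurons of the hippocampus of rat fetuses of embryonic day 17, cultured for 7 days and then incubated for 24 h with vehicle, with 1 nM human aminoprocalcitonin (NPCT) or with 1 nM human procalcitonin (PCT), the longer peptide from which NPCT is cleaved. Each group had 3 libraries. The paper's methods speak of pooled biological triplicates, so p-values measure the spread between these libraries, which may be partly technical.

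Mitochondrial DNA is transcribed from both strands into long precursors, which are cut largely at the tRNAs that lie between the mRNAs and rRNAs. Its mRNAs encode core subunits of the respiratory chain and of ATP synthase, while the other subunits, and the enzymes that copy, transcribe and process the mitochondrial genome, are encoded in the nucleus. Neurons depend on this machinery for most of their ATP. Libraries were made from RNA bound to poly-T beads, which favours mitochondrial mRNAs, since most of them carry short poly(A) tails, over the tRNAs.

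Totals ran from 13573056 to 17211642 fragments per library. All 12 markers of neurons in the list were tested, and their summed FPKM was 1439 to 1523 in the vehicle group, 1407 to 1503 with NPCT and 1322 to 1506 with PCT. The cultures also held transcripts of other brain cells. The 8 astrocyte markers summed to 2334 to 2513 FPKM with vehicle, 2297 to 2601 with NPCT and 2057 to 2122 with PCT, and the 7 microglia markers to 19.8 to 27.4, 27.3 to 114.1 and 8.39 to 10.9. The 8 markers of the oligodendrocyte lineage summed to 396.0 to 414.3, 424.8 to 433.8 and 338.0 to 353.4 FPKM. With PCT this sum was lower through Olig1, at 271.5 FPKM with vehicle and 190.7 with PCT in the mean, while 6 of the 8 markers were higher, at a median log2 fold change of 0.21. All 4 markers of red blood cells were too low to be tested. PCT replicate 3 stood apart from the other PCT libraries. The chi-square of fragments over genes per degree of freedom was 21.6 and 18.9 for its pairs with PCT replicates 1 and 2, against 6.38 between replicates 1 and 2. The main results with PCT are given with and without PCT replicate 3. To a lesser degree NPCT replicate 3 also stood apart, at 10.6 and 10.8 with NPCT replicates 1 and 2, against 4.38 between these.

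The 13 mRNA genes took 5.20%, 5.72% and 5.07% of all fragments in the vehicle libraries. With NPCT they took 3.62%, 3.92% and 4.09%, and with PCT 6.08%, 5.33% and 4.03%. All NPCT libraries thus lay below all vehicle libraries, whereas the PCT libraries spread from above the highest vehicle library down into the NPCT range. The mean share was 5.33% ± 0.347 (SD, n = 3) with vehicle, 3.87% ± 0.237 (SD, n = 3) with NPCT and 5.15% ± 1.04 (SD, n = 3) with PCT. The difference between NPCT and vehicle was -1.45 percentage points and had the smallest p that 3 libraries against 3 allow (exact two-sided permutation test, p = 0.1). PCT differed from vehicle by -0.182 points (exact permutation test, p = 0.9), or by 0.376 points without PCT replicate 3. NPCT against PCT gave -1.27 points (exact permutation test, p = 0.2), or -1.83 points without that library. In bulk RNA, fewer mitochondria, less RNA per mitochondrion and a different mix of cells cannot be told apart.

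**Figure D1:**
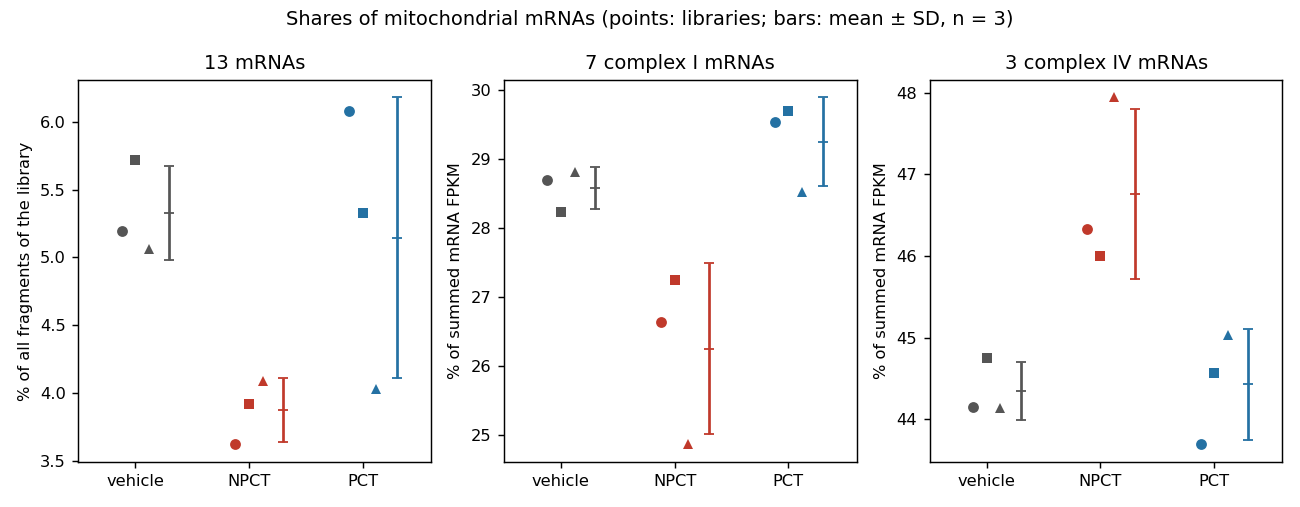
Share of all fragments on the 13 mitochondrial mRNA genes (left), and shares of their summed FPKM on the 7 complex I genes (middle) and the 3 complex IV genes (right), in percent. Points are libraries (circle, square and triangle for replicates 1, 2 and 3), bars give mean ± SD of 3 libraries, and the axes do not start at 0. The NPCT libraries lie below the vehicle libraries on the left and in the middle and above them on the right, while PCT replicate 3 lies with NPCT only on the left.

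In the vehicle group, per-length levels spanned from COX1, with a mean of 9258 FPKM, to ATP8, with 49.7 FPKM. COX1, ATP6 and COX3 were the most abundant, at 9258, 8534 and 8531 FPKM, and their libraries overlapped. COX2 and CYTB followed at 7136 and 6630 FPKM and overlapped with each other. Below them came ND1, ND2, ND4L, ND5, ND3 and ND6, at 4532, 3542, 2374, 2050, 1880 and 1363 FPKM, and here no neighbours in the order overlapped. The rRNAs had 433.5 and 429.5 FPKM and overlapped, and ND4, at 306.1 FPKM, and ATP8 closed the order. The same order of means was found with PCT, where all neighbours overlapped except ND6 with the small rRNA and ND4 with ATP8. With NPCT, COX3 came before ATP6 and ND3 before ND4L and ND5, but COX3 and ATP6 overlapped, as did ND3 and ND4L.

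**Figure D2:**
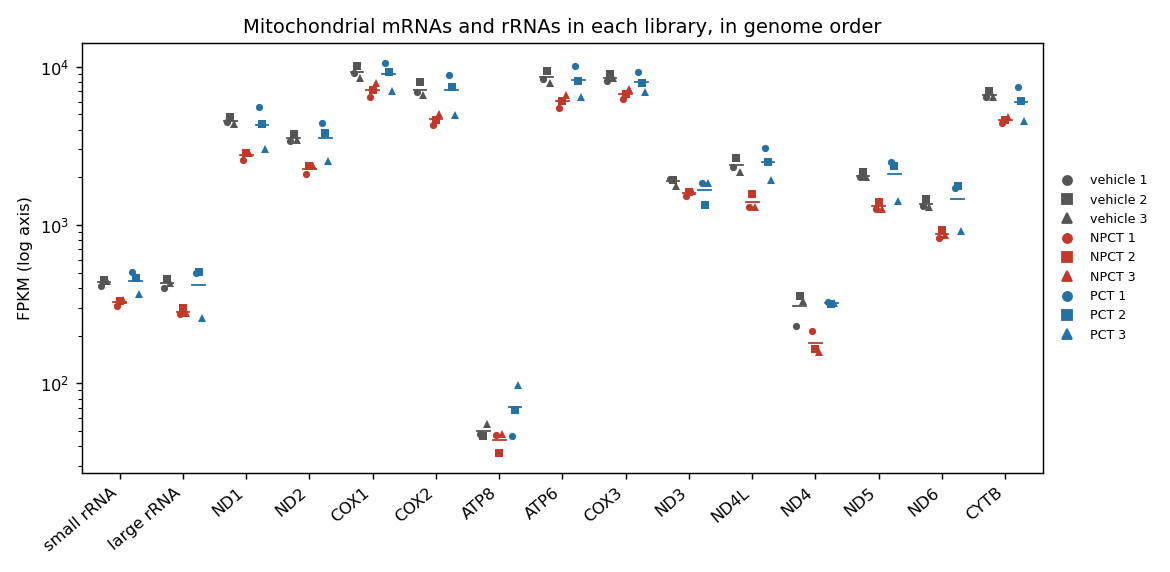
FPKM (log axis) of the 13 mRNA genes and the 2 rRNA genes in each of the 9 libraries, in the order of the mitochondrial genome. Symbols are libraries and short lines are group means. The NPCT libraries lie below all vehicle libraries in every gene but ATP8, where the groups overlap.

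The NPCT and vehicle groups were compared to ask whether NPCT changes the transcripts of the mitochondrial genome. The 13 mRNAs had a median log2 fold change of -0.62, against 0.01 over all 15958 genes tested, and single genes ranged from -0.78 for ND4L to -0.19 for ATP8. Quantile normalization gives genes of the same rank the same value in every library, so it hides changes of abundant genes that keep their rank. After it the median of the 13 mRNAs was -0.23, with 10 of them lower. A gene was called when its Benjamini-Hochberg adjusted p in limma did not exceed 0.05 and its fold change was above 1.5. By this rule none of the 34 mitochondrial genes was called, and 0.219% of all genes were. Of the 13 mRNAs, 11 had an unadjusted p under 0.05, as did 29.3% of all genes, and limma-voom on fragments called 6 of them, all lower, and 2.22% of all genes. In 12 of the 13, no NPCT library reached the lowest vehicle library, a pattern seen in 20.3% of all genes, while groups lay apart in the other direction in 20.0% of all genes and in none of the mRNAs. The number of calls depended on the libraries and settings of the fit. Without PCT replicate 3, 7 mRNAs (ND1, ND2, ND4, ND4L, ND5, ND6 and COX2) and the large rRNA were called lower, with adjusted p from 0.0027 to 0.0186 in limma, where 3.52% of all genes were called and 1.04% called lower. A fit of only the vehicle and NPCT libraries called those same 7 mRNAs and the large rRNA lower, and 3.63% of all genes. Without PCT replicate 1, ND1, ND2 and ND4L were called lower, and 1.38% of all genes were called. Markers of cell types were compared between the same groups. Of the 12 neuron markers 7 lay apart on the lower side and 2 on the higher side, at a median log2 fold change of -0.23, with none called. Each of the 7 microglia markers had a log2 fold change above 0, at a median of 0.49, but only 1 lay apart, 1 had an unadjusted p under 0.05 and none was called, and NPCT replicate 3 was the highest library for C1qa, at 38.2 FPKM against 9.69 and 8.78 in the other NPCT libraries. Their part in the mitochondrial result was not tested.

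Of the mRNAs, 7 encode subunits of complex I, the NADH dehydrogenase that passes electrons to ubiquinone. ND1 (2740 to 3694, + strand) had 4448, 4825 and 4323 FPKM with vehicle, 2572, 2863 and 2851 with NPCT, and 5580, 4333 and 2995 with PCT. ND2 (3904 to 4942, + strand) had 3405, 3761 and 3460 FPKM with vehicle, 2088, 2360 and 2343 with NPCT, and 4380, 3781 and 2531 with PCT. Both were thus lower in every NPCT library than in any vehicle or PCT library. Their log2 fold changes with NPCT were -0.71 (SE 0.19) and -0.65 (SE 0.18), with adjusted p of 0.0619 and 0.0646 in limma.

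ND4L (9870 to 10166, + strand), a small membrane subunit, had 2323, 2635 and 2163 FPKM with vehicle, 1295, 1560 and 1301 with NPCT, and 3039, 2503 and 1931 with PCT. ND4 (10160 to 11537, + strand), one of the large antiporter-like subunits, had 230.8, 356.4 and 330.9 FPKM with vehicle, 213.8, 165.1 and 158.4 with NPCT, and 324.4, 316.5 and 321.7 with PCT. ND4L and ND4 showed the lowest fold changes of the 13 mRNAs with NPCT, at -0.78 (SE 0.16, adjusted p = 0.0509 in limma) and -0.76 (SE 0.16, adjusted p = 0.0516 in limma), both just short of the threshold. Over the 19 alternative settings their adjusted p ran from 0.00554 to 0.169 and from 0.0186 to 0.169. In contrast to ND4L, ND4 was even over the PCT libraries, between 316.5 and 324.4 FPKM.

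ND5 (11736 to 13565, + strand), another antiporter-like subunit, had 1994, 2154 and 2003 FPKM with vehicle, 1260, 1397 and 1268 with NPCT, and 2486, 2342 and 1424 with PCT. ND6 (13543 to 14061, - strand), the only mRNA gene of the other strand, had 1321, 1463 and 1306 FPKM with vehicle, 823.8, 933.0 and 865.0 with NPCT, and 1707, 1757 and 918.8 with PCT. The pair went together, with log2 fold changes of -0.65 (SE 0.18) and -0.64 (SE 0.22) for NPCT and a ratio of ND5 to ND6 between 1.33 and 1.55 in all 9 libraries. The 2 genes overlap by 23 bases on opposite strands, and as no strand-marking step is stated, reads of a gene and of its antisense transcript cannot be told apart.

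ND3 (9451 to 9798, + strand), the remaining complex I mRNA, differed least within this group. It had 1961, 1908 and 1772 FPKM with vehicle, 1520, 1623 and 1645 with NPCT, and 1827, 1333 and 1841 with PCT. NPCT and vehicle did not overlap, but the log2 fold change was only -0.24 (SE 0.12, adjusted p = 0.235 in limma).

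Complex III passes electrons on to cytochrome c, and CYTB (14136 to 15278, + strand) is its one subunit encoded here. CYTB had 6460, 6982 and 6449 FPKM with vehicle, 4412, 4606 and 4774 with NPCT, and 7399, 6063 and 4549 with PCT. The NPCT libraries were lower than the vehicle libraries, with a log2 fold change of -0.53 (SE 0.16, adjusted p = 0.0761 in limma).

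The 3 catalytic core subunits of cytochrome c oxidase, complex IV, are encoded by COX1, COX2 and COX3. COX1 (5323 to 6867, + strand) had 9103, 10149 and 8520 FPKM with vehicle, 6429, 7104 and 7830 with NPCT, and 10551, 9241 and 7038 with PCT. COX2 (7006 to 7689, + strand) had 6876, 7966 and 6567 FPKM with vehicle, 4285, 4618 and 5036 with NPCT, and 8864, 7425 and 4933 with PCT. COX3 (8599 to 9382, + strand) had 8146, 9001 and 8446 FPKM with vehicle, 6285, 6683 and 7256 with NPCT, and 9200, 7892 and 6924 with PCT. NPCT and vehicle did not overlap in any of the 3 genes. The log2 fold changes were -0.38 (SE 0.16), -0.62 (SE 0.20) and -0.34 (SE 0.12) in this order, with adjusted p of 0.152, 0.0855 and 0.111 in limma. Under quantile normalization, abundant mRNAs that keep their rank come out near 0 by construction, so it cannot test for a change in them. After it the fold changes were 0.00 for COX1, -0.04 for COX2, 0.07 for COX3, 0.04 for CYTB and -0.07 for ATP6. In the complex I mRNAs they were then -0.04 for ND3, -0.24 for ND1 and from -0.87 for ND4 to -0.50 for ND2 in the other 5.

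ATP6 and ATP8 encode membrane subunits of ATP synthase, complex V. ATP6 (7919 to 8599, + strand) had 8339, 9344 and 7920 FPKM with vehicle, 5458, 6066 and 6591 with NPCT, and 10095, 8059 and 6455 with PCT. ATP8 (7758 to 7961, + strand) had 47.6, 46.7 and 54.9 FPKM with vehicle, 47.0, 36.2 and 47.9 with NPCT, and 46.3, 67.6 and 97.8 with PCT. ATP6 was lower in the NPCT libraries, by a log2 fold change of -0.50 (SE 0.16, adjusted p = 0.0896 in limma). ATP8 was the one mRNA in which vehicle and NPCT overlapped, and its highest value came from PCT replicate 3, the library in which 10 of the 13 mRNAs were lower than the mean of the other PCT libraries.

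**Figure D3:**
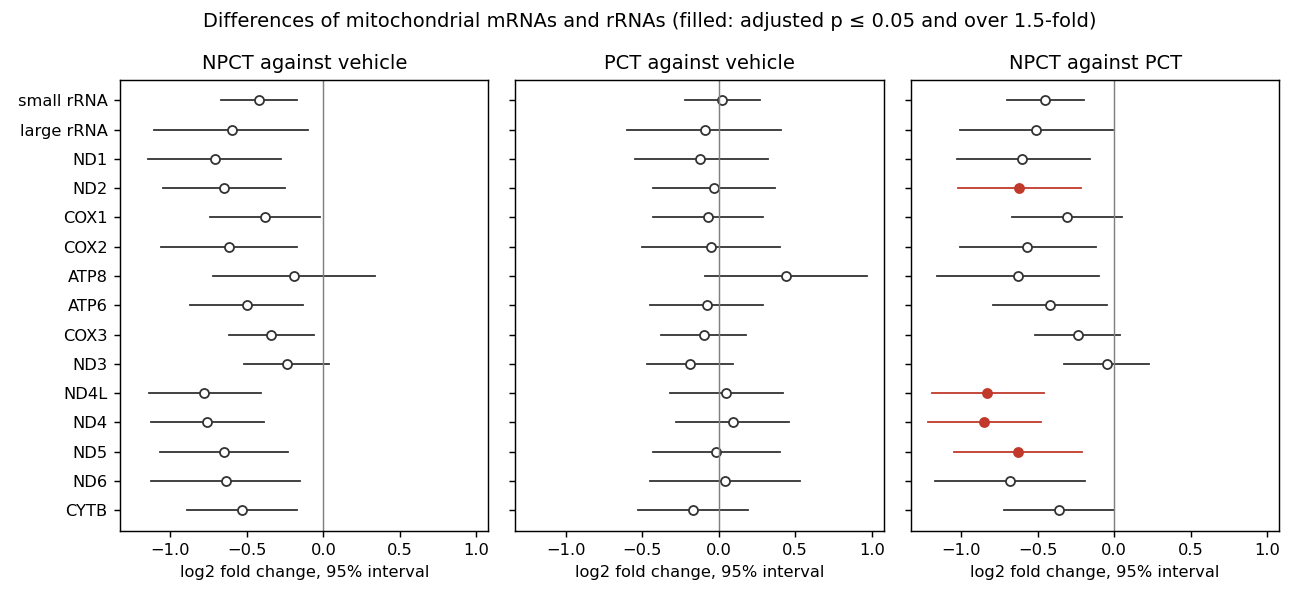
Log2 fold changes of the 13 mRNA genes and the 2 rRNA genes in the 3 comparisons, with 95% intervals from limma, in genome order. Filled red points passed the test (adjusted p of at most 0.05 and fold change above 1.5). No point is filled for NPCT or PCT against vehicle, and ND2, ND4L, ND4 and ND5 are filled for NPCT against PCT.

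The mRNAs were not shifted by the same amount. The complex I mRNAs made up 28.7%, 28.2% and 28.8% of the summed mRNA FPKM in the vehicle libraries, 26.6%, 27.2% and 24.9% with NPCT, and 29.5%, 29.7% and 28.5% with PCT. The share of complex IV was 44.1%, 44.8% and 44.1% with vehicle, 46.3%, 46.0% and 47.9% with NPCT, and 43.7%, 44.6% and 45.0% with PCT. In every NPCT library complex I thus had a smaller share, and complex IV a larger one, than in any other library. The difference from vehicle was -2.33 percentage points for complex I and 2.41 points for complex IV (exact two-sided permutation test, p = 0.1 each, the smallest possible). Complex III and complex V did not separate from vehicle, at 11.6% ± 0.343 and 15.4% ± 0.418 with NPCT against 11.8% ± 0.286 and 15.3% ± 0.279 with vehicle (SD, n = 3 each). PCT replicate 3 had a low mRNA total but a complex I share within the range of the vehicle group.

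Relative to the mean log2 level of the 13 mRNAs in the same library, COX1, COX3 and ND3 stood higher with NPCT than with vehicle, by 0.16, 0.20 and 0.30, without overlap. ND1, ND2 and ND5 stood lower, by -0.18, -0.11 and -0.11, also without overlap. With PCT, CYTB and COX3 stood lower than with vehicle, by -0.16 and -0.09, without overlap. In the 13 mRNAs, longer genes tended to have the lower fold changes with NPCT (Pearson's r = -0.39 and Spearman's rho = -0.30 with log2 length), a description across 13 genes of the same libraries, which are not independent.

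The libraries also differed in how levels depended on gene length. The slope of the log2 level on log2 length over nuclear genes was -0.023, -0.028 and -0.017 in the NPCT libraries and -0.029 in PCT replicate 3, against 0.021, 0.03 and -0.002 in the vehicle libraries and 0.023 and 0.025 in the other PCT libraries. The libraries with low mitochondrial mRNA were therefore also those with the most negative slopes. With the length trend of the nuclear genes removed, the median log2 fold change of the 13 mRNAs with NPCT was -0.70, against -0.62 without removal. ND4 and ND4L were then called lower, as were 0.351% of all genes. The part of such library differences in the mitochondrial result was not tested.

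Neighbouring genes that share transcripts differed widely in their levels. ATP8 and ATP6 overlap by 43 bases and ND4L and ND4 by 7 bases, and in mammals each pair is carried by 1 mature mRNA. Nevertheless, ATP6 had 66.0 to 218.3 times the FPKM of ATP8 over the 9 libraries, and ND4L had at most 10.1 times that of ND4. ND4, with 1378 bases, and ATP8, with 204 bases, were also the only mRNA genes below the rRNAs in every group mean. How the authors' counting treated fragments that touch 2 genes is not given in the sources used here. The levels of ATP8, ND4L and ND4 relative to other genes are therefore uncertain. ATP8, ND4L (297 bases) and ND3 (348 bases) were also shorter than the library fragments, selected at 370 to 420 bases, so their fragments must in general also cover neighbours. The ratio of ATP6 to ATP8 was 173.2 ± 27.9 with vehicle, 140.4 ± 25.8 with NPCT and 134.5 ± 77.3 with PCT (SD, n = 3 each). That of ND4L to ND4 was 7.90 ± 1.72 with NPCT and 7.76 ± 1.69 with PCT, and ran from 6.54 to 10.1 with vehicle. Neither ratio separated the groups.

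The 2 rRNA genes, named here by their length, encode the RNAs of the mitochondrial ribosome. The small-subunit rRNA (AY172581.9, 68 to 1025, + strand, 958 bases) had 413.6, 446.6 and 440.4 FPKM with vehicle, 309.2, 328.4 and 333.3 with NPCT, and 507.5, 463.4 and 364.2 with PCT. The large-subunit rRNA (AY172581.24, 1094 to 2664, + strand, 1571 bases) had 401.9, 457.4 and 429.1 FPKM with vehicle, 272.0, 298.8 and 275.8 with NPCT, and 495.2, 505.6 and 258.6 with PCT. Both were lower in every NPCT library than in any vehicle library. The log2 fold changes were -0.42 (SE 0.11, adjusted p = 0.0604 in limma) and -0.60 (SE 0.22, adjusted p = 0.114 in limma). The large rRNA of PCT replicate 3 lay below all NPCT libraries.

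The amount of rRNA relative to mRNA was similar in the 3 group means. There were 2.04 ± 0.101 rRNA fragments per 100 mRNA fragments with vehicle, 1.99 ± 0.108 with NPCT and 2.09 ± 0.222 with PCT (SD, n = 3 each). The differences were -0.0471 for NPCT and 0.0553 for PCT against vehicle and -0.102 for NPCT against PCT, all with overlapping libraries (exact two-sided permutation tests, p from 0.6 to 0.8, in a design whose smallest p is 0.1). The ratio of small to large rRNA was 1.03, 0.976 and 1.03 with vehicle and 1.14, 1.10 and 1.21 with NPCT, which did not overlap (exact permutation test, p = 0.1). With PCT this ratio was 1.02, 0.917 and 1.41, the last value again from replicate 3. As selection on poly(A) tails precedes sequencing, these levels are of the rRNA that was captured, not of all rRNA.

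The PCT and vehicle groups were compared to ask whether the parent peptide acts on the same transcripts. None of the 13 mRNAs and neither rRNA was called in limma, 0 of them had an unadjusted p under 0.05, as 18.9% of all genes did, limma-voom called 0, and in all 15 the libraries overlapped. The median log2 fold change of the mRNAs was -0.05, with 9 of 13 below 0. Without PCT replicate 3 it was 0.12, with 2 of 13 below 0. The median was also above 0 without vehicle replicate 2 (0.02), so its direction was not settled. It was 0.00 after quantile normalization, which cannot show a direction for abundant genes that keep their rank. The 95% intervals of the mRNAs were bounded by -0.55 for ND1 and 0.97 for ATP8. Only the interval of ATP8, from -0.09 to 0.97, reached beyond a 1.5-fold change. Complex III, the share of CYTB, was 11.3%, 11.0% and 10.8% of the mRNA FPKM with PCT against 11.8%, 11.5% and 12.1% with vehicle, a difference of -0.766 points (exact two-sided permutation test, p = 0.1). In this comparison 2.31% of all genes passed the test, 11.9% lay apart on the lower side and 13.1% on the higher side.

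Mitochondrial genes that passed with PCT were tRNA genes, AY172581.18, AY172581.10 and AY172581.12. The tRNAs carry amino acids to the mitochondrial ribosome. The table gives their position but not the amino acid, so they are named here by identifier. Only 5 of the 22 had at least 10 fragments in every library, and the library fragments, selected at 370 to 420 bases, were longer than any tRNA gene (60 to 75 bases), so a fragment counted on a tRNA must in general also cover its neighbours. Both properties limit what these values say of mature tRNAs.

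AY172581.18 and AY172581.10 lie side by side on the - strand in the tRNA cluster between ND2 and COX1, at 5081 to 5152 and 5185 to 5252. The gap of 32 bases between them, 5153 to 5184, is where mammalian mitochondrial DNA carries the origin of light-strand replication. AY172581.18 had 62.5, 66.2 and 63.3 FPKM with vehicle, 97.3, 76.4 and 107.0 with NPCT, and 22.5, 20.5 and 45.9 with PCT. AY172581.10 had 58.5, 54.3 and 40.6 FPKM with vehicle, 34.7, 46.1 and 27.6 with NPCT, and 19.8, 10.3 and 16.8 with PCT. Every PCT library, replicate 3 included, was below every vehicle and NPCT library in both genes.

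With PCT, AY172581.10 fell by 1.74 on the log2 scale (SE 0.26, adjusted p = 0.00916 in limma) and AY172581.18 by 1.21 (SE 0.27, adjusted p = 0.0411 in limma). The call of AY172581.10 held in all 19 alternative settings, with adjusted p from 0.00519 to 0.0493, while that of AY172581.18 held in 9 of 19, with adjusted p from 9.08e-04 to 0.134. Both were called without PCT replicate 3, at -1.81 and -1.57, but AY172581.18 was not called when any other single library was left out. The counts behind these values were 206 and 156 fragments over the vehicle libraries and 103 and 50 over the PCT libraries for AY172581.18 and AY172581.10. Microglia and astrocyte markers were lower in the same libraries. With PCT, 3 of 7 microglia markers and 4 of 8 astrocyte markers passed on the lower side, as did 1.72% of all genes. Without PCT replicate 3 it was 1 of 7 and 3 of 8, and 1.70% of all genes. The part of other cells in the tRNA result was not tested.

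With NPCT the 2 neighbours went different ways. AY172581.18 was above the vehicle range in all NPCT libraries, with a log2 fold change of 0.53 (SE 0.27, adjusted p = 0.215 in limma), and AY172581.10 gave -0.51 (SE 0.26, adjusted p = 0.224 in limma) with overlapping libraries. Neither passed the test. The ratio of AY172581.18 to AY172581.10 was 1.07, 1.22 and 1.56 with vehicle, 2.80, 1.66 and 3.88 with NPCT, and 1.13, 1.98 and 2.74 with PCT. It was higher in each NPCT library than in any vehicle library (exact two-sided permutation test, p = 0.1), and the PCT libraries overlapped with both groups.

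**Figure D4:**
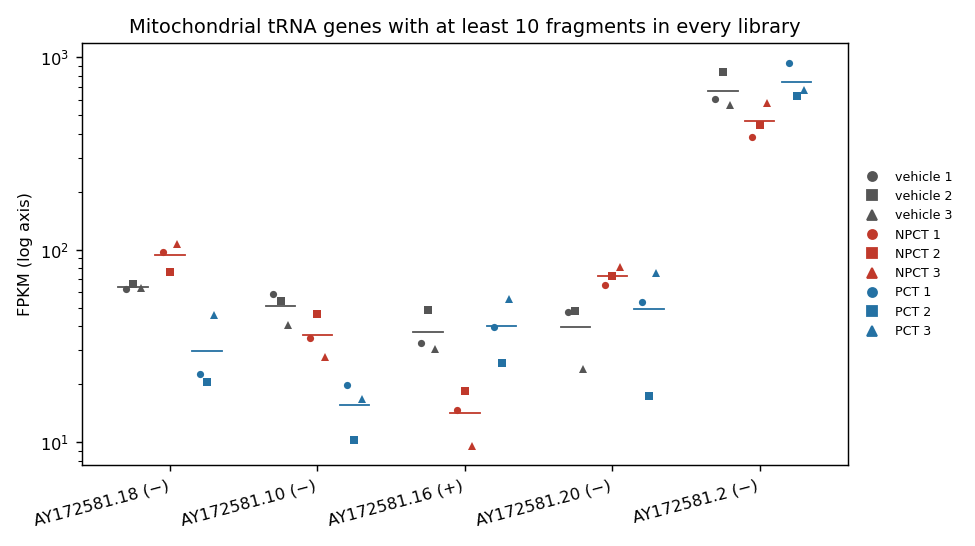
FPKM (log axis) of the 5 tRNA genes with at least 10 fragments in every library, in genome order, with the strand in brackets. Symbols are libraries and short lines are group means. For AY172581.18 and AY172581.10 all PCT libraries lie below all others, and for AY172581.16 all NPCT libraries lie below all others.

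The other 3 tRNA genes with such counts showed no change with PCT that passed the test. AY172581.16 (9800 to 9867, + strand), between ND3 and ND4L, had 32.6, 48.4 and 30.5 FPKM with vehicle, 14.7, 18.4 and 9.52 with NPCT, and 39.6, 25.9 and 55.3 with PCT. The NPCT libraries were the lowest, with a log2 fold change of -1.40 (SE 0.32, adjusted p = 0.053 in limma) against vehicle, larger than that of any mRNA but on 42 fragments. Over the 19 alternative settings its adjusted p ran from 0.0126, without PCT replicate 3, to 0.169, and it was called in 5. AY172581.20 (14062 to 14130, - strand), between ND6 and CYTB, had 47.2, 47.7 and 24.0 FPKM with vehicle, 65.3, 72.7 and 81.6 with NPCT, and 53.7, 17.3 and 76.0 with PCT. The NPCT libraries were above the vehicle libraries there, with a log2 fold change of 0.94 (SE 0.49, adjusted p = 0.228 in limma). The most abundant, AY172581.2 (15348 to 15415, - strand), the last annotated gene, had 606.0, 836.8 and 561.7 FPKM with vehicle, 383.8, 443.6 and 575.1 with NPCT, and 938.6, 628.9 and 674.6 with PCT. NPCT and vehicle overlapped in it, and the log2 fold change was -0.51 (SE 0.21, adjusted p = 0.141 in limma). Against PCT it was -0.67 (SE 0.21, adjusted p = 0.0569 in limma), without overlap, and it was called without PCT replicate 3 (-0.74, adjusted p = 0.0479).

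The remaining 17 tRNA genes had at most 30 fragments in any library, 14 were at 0 in at least 1 library, and AY172581.13 had no fragment in any of the 9, where a count of 0 allows up to 3 fragments. The call of AY172581.12 with PCT rested on 12 fragments in the PCT libraries against 1 in the vehicle libraries, a ratio of 11.5 with an exact 95% interval from 1.70 to 492.2 that covers counting error only. With NPCT it had 13 fragments, a ratio of 13.3 (1.99 to 564.2), with an adjusted p of 0.0509 in limma and a call in 9 of the 19 alternative settings. With PCT it was not called when replicate 3 was left out (limma, adjusted p = 0.0767), and over the 19 alternative settings the call was made in 7. AY172581.7 had 39 fragments with NPCT and 12 with vehicle, a ratio of 3.32 (1.70 to 6.96), with an adjusted p of 0.417 in limma. For NPCT against vehicle it was called in 1 of the 19 alternative settings, the fit of only these 2 groups, which called 3.63% of all genes.

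NPCT and PCT were compared directly to ask whether the peptides differ in their effect on these transcripts. Here 4 of the 13 mRNAs passed the test, all lower with NPCT and all of complex I, where 5.76% of all genes passed and 1.38% of all genes passed on the lower side. ND4L fell by 0.83 (SE 0.16, adjusted p = 0.0138 in limma), ND4 by 0.85 (SE 0.16, adjusted p = 0.013 in limma), ND2 by 0.62 (SE 0.18, adjusted p = 0.0455 in limma) and ND5 by 0.63 (SE 0.18, adjusted p = 0.0479 in limma). The groups lay apart in 5 of the 13 mRNAs, ND1 and these 4, all on the lower side, as in 18.0% of all genes, and none lay apart on the higher side, as 15.4% of all genes did. The median of the 13 mRNAs was -0.60. Microglia markers were higher with NPCT than with PCT, with 6 of 7 called, as were 3 of 8 astrocyte markers and 4.38% of all genes, and their part in this result was not tested.

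Which of these calls were made depended on the libraries. Without PCT replicate 3 the median was -0.81 and 7 mRNAs passed, namely ND1, ND2, ND4, ND4L, ND5, ND6 and COX2, while ND3 was at 0.03. In that fit 10.2% of all genes were called and 3.06% called lower. In a fit of only the NPCT and PCT libraries ND4 was the only mRNA that passed (adjusted p = 0.0211 in limma), with 2.84% of all genes. ND4 passed in all 19 alternative settings and ND4L in 17, against 7 for ND2 and 6 for ND5. The calls of ND2 and ND5 were lost whenever a single library other than PCT replicate 3 was left out, and that of ND4L when NPCT replicate 1 was. With all libraries, the 95% intervals for COX1, COX3, ND3 and CYTB included 0, and ran from -0.67 to 0.05, from -0.52 to 0.04, from -0.33 to 0.23 and from -0.72 to 0.00. Without PCT replicate 3 the differences were -0.48 for COX1, -0.34 for COX3 and -0.54 for CYTB, with adjusted p of 0.019, 0.0381 and 0.00573 in limma, all below 1.5-fold, and ND3 had an adjusted p of 0.874. The small-subunit rRNA differed by -0.45 (SE 0.11, adjusted p = 0.0291 in limma), less than 1.5-fold, and the large one by -0.51 (SE 0.22, adjusted p = 0.145 in limma), or, as a call, by -0.83 without PCT replicate 3 (adjusted p = 4.24e-04 in limma).

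Among the tRNA genes with at least 10 fragments in every library, AY172581.18 was 1.74 (SE 0.27, adjusted p = 0.00517 in limma) and AY172581.10 was 1.22 (SE 0.26, adjusted p = 0.0181 in limma) higher with NPCT than with PCT on the log2 scale. AY172581.16 was lower with NPCT by a log2 fold change of -1.48 (SE 0.32, adjusted p = 0.0181 in limma). The calls of these 3 genes held in 19, 16 and 15 of 19 alternative settings and without PCT replicate 3. That of AY172581.10 was lost without NPCT replicate 1 or 2, and that of AY172581.16 without NPCT replicate 1, NPCT replicate 3 or PCT replicate 1. AY172581.22 also passed, on 8 fragments with NPCT and 0 with PCT, at least 2.84-fold higher against a floor of 3 fragments over the group, with an exact 95% lower limit of 1.82 from counting error. Its call was lost without NPCT replicate 2 or 3, without PCT replicate 1 or 2, and with limma-voom.

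The nuclear genes of the same complexes did not follow the mitochondrial mRNAs. Of 73 nuclear subunit genes tested, 59 were higher and 14 lower with NPCT than with vehicle, at a median log2 fold change of 0.24. None was called in limma, where 0.219% of all genes were. Of the 73, 40 had an unadjusted p under 0.05 (54.8%, against 29.3% of all genes). In 49 the groups lay apart on the higher side and in 4 on the lower, where 20.0% and 20.3% of all genes did. When PCT replicate 3 was left out, 12 were called, all higher, and 2.48% of all genes were called higher. With PCT 67 were higher and 6 lower, at a median of 0.23, and again none was called, where 2.31% of all genes were. Of the 73, 31 had an unadjusted p under 0.05 (42.5%, against 18.9% of all genes). Without PCT replicate 3 the median was 0.14, with Uqcrb of complex III, a symbol the table lists more than once, called higher (0.64) and Ndufa3 of complex I lower (-1.25), both named after their values were seen, where 2.14% of all genes were called. Relative to each gene's mean, the median of these 73 genes was -0.145, -0.169 and -0.152 in the vehicle libraries, 0.0992, 0.0130 and 0.196 with NPCT, and -0.0474, 0.00954 and 0.196 with PCT. Every treated library was thus above every vehicle library in the nuclear subunits (exact two-sided permutation tests, p = 0.1 for each peptide). The NPCT libraries and PCT replicate 3 were the highest here and also had the most negative slopes on gene length. The part of gene length in the nuclear result was not tested. For the 13 mitochondrial mRNAs the same measure was 0.169, 0.308 and 0.134 with vehicle, -0.449, -0.346 and -0.276 with NPCT, and 0.438, 0.284 and -0.243 with PCT.

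**Figure D5:**
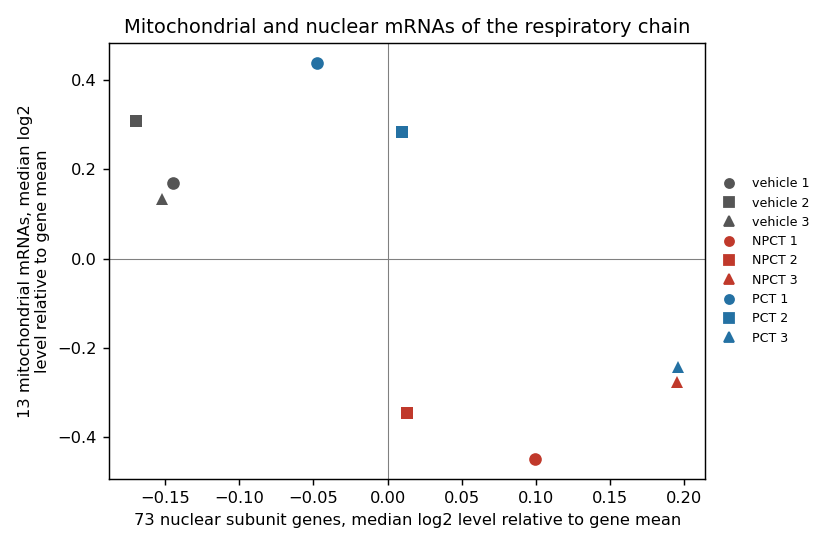
Median log2 level, relative to each gene's mean over the 9 libraries, of the 13 mitochondrial mRNAs (vertical) against that of 73 nuclear subunit genes of complexes I, III, IV and V (horizontal). Each point is a library, with the symbol giving the replicate. The vehicle libraries lie at the upper left, NPCT and PCT replicate 3 at the lower right, and PCT replicates 1 and 2 between them horizontally and high vertically.

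In each complex the nuclear member with the smallest adjusted p with NPCT was higher. These were Ndufb8 of complex I, at 0.47 (SE 0.08, adjusted p = 0.0493 in limma), Uqcr11 of complex III, at 1.05 (SE 0.19), Cox6a1 of complex IV, at 0.77 (SE 0.14), and Atp5f1e of complex V, at 0.72 (SE 0.13), the last 3 with an adjusted p of 0.0509. With PCT they were Ndufb8 at 0.49 (SE 0.08, adjusted p = 0.0116 in limma), Uqcrfs1 at 0.17 (adjusted p = 0.136), Ndufa4 at 0.28 (adjusted p = 0.0471) and Atp5po at 0.37 (adjusted p = 0.0108). Except for Uqcr11, Cox6a1 and Atp5f1e, their fold changes were below 1.5. Against PCT, Atp5me of complex V was the one nuclear subunit gene called, higher with NPCT (1.28, SE 0.22, adjusted p = 0.00826 in limma). In that comparison 5.76% of all genes were called and 4.38% called higher. The 73 nuclear genes had a median of 0.06, and 11 lay apart on the lower side against 3 on the higher, where 18.0% and 15.4% of all genes did. Their smallest adjusted p was that of Ndufa4, lower with NPCT (-0.46, SE 0.07, adjusted p = 0.00414 in limma). Without PCT replicate 3 there were 9 called higher and 1 lower, where 10.2% of all genes were called. By complex, the medians with NPCT were 0.24 for 35 genes of complex I, 0.15 for 9 of complex III, 0.22 for 15 of complex IV and 0.22 for 14 of complex V.

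Genes that serve the mitochondrial genome showed no call in limma with either peptide against vehicle. Of all genes, only 0.219% were called with NPCT and 2.31% with PCT. Of the 62 genes in these 4 lists, 20 had an unadjusted p under 0.05 with NPCT (32.3%, against 29.3% of all genes) and 13 with PCT (21.0%, against 18.9%), shares near those of all genes. The 8 genes of mitochondrial DNA replication had a median log2 fold change of 0.20 with NPCT and 0.15 with PCT. The smallest adjusted p belonged to Polg, the catalytic subunit of the mitochondrial DNA polymerase, with NPCT (0.26, SE 0.09, adjusted p = 0.0973 in limma) and to Ssbp1, which coats single-stranded mitochondrial DNA, with PCT (0.38, SE 0.13, adjusted p = 0.153 in limma). The 8 genes of mitochondrial transcription had a median of -0.24 with NPCT and 0.09 with PCT. Mterf2, of the mitochondrial termination factor family, had 4.73, 4.70 and 4.07 FPKM with vehicle and 2.79, 2.98 and 2.25 with NPCT, a log2 fold change of -0.74 (SE 0.14, adjusted p = 0.0509 in limma), and it was called without PCT replicate 3 (adjusted p = 0.0118). With PCT the smallest adjusted p was that of Tfam, which packages and helps to transcribe mitochondrial DNA (0.31, SE 0.10, adjusted p = 0.126 in limma).

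Against PCT, Mterf2 was lower with NPCT by a log2 fold change of -0.61 (SE 0.14, adjusted p = 0.0231 in limma), and it was the only 1 of the 8 transcription genes called. Of 30 genes of mitochondrial RNA processing, modification and decay, 2 passed in that comparison, Trnt1 and Pnpt1, a subunit of the RNA-degrading machinery (-0.59, SE 0.13, adjusted p = 0.0188 in limma), both lower with NPCT. Over the 4 lists together 4 of 62 were called (6.45%), all lower, where 5.76% of all genes were called and 1.38% called lower. With PCT replicate 3 left out, 2 transcription genes and 4 of these 30 were called lower, as were 3.06% of all genes. Trnt1, which adds the CCA end to tRNAs, had 21.3, 21.5 and 20.6 FPKM with vehicle, 14.8, 16.4 and 16.3 with NPCT, and 24.4, 25.6 and 22.0 with PCT. Its log2 fold change was -0.42 (SE 0.07, adjusted p = 0.0509 in limma) for NPCT against vehicle and -0.60 (SE 0.07, adjusted p = 0.00259 in limma) against PCT. With PCT the smallest adjusted p in this list was that of Pus1, a tRNA pseudouridine synthase (0.41, SE 0.12, adjusted p = 0.0991 in limma).

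The 16 mitochondrial aminoacyl-tRNA synthetases tested, which load the tRNAs, had medians of 0.01 with NPCT and 0.09 with PCT, close to the 0.01 and 0.00 of all genes. With PCT replicate 3 left out, the PCT medians of the replication, transcription, RNA processing and synthetase lists were 0.06, 0.18, 0.19 and 0.06. None of their genes was called, where 2.14% of all genes were. Cars2 had the smallest adjusted p with both peptides, at 0.26 (SE 0.06, adjusted p = 0.0545 in limma) with NPCT and 0.20 (SE 0.06, adjusted p = 0.115 in limma) with PCT. Against PCT 1 synthetase gene, Ears2, was called lower with NPCT (-0.59, SE 0.13, adjusted p = 0.0225 in limma), a gene named after its values were seen, and none was called without PCT replicate 3. Of all genes, 5.76% were called there, and 10.2% without that library.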

How the data were processed

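Libraries of poly(A)-selected RNA from 9 samples of rat hippocampal neurons, 3 per group, were sequenced. Per the labels and methods, the authors aligned reads with HISAT2 2.0.5 to Rnor_6.0, counted them with featureCounts 1.5.0-p3 and deposited unlogged FPKM for 34092 genes. In each library the product of FPKM and length came in whole steps for 100% of values (tolerance 0.01), which gave fragments per gene. Median-ratio size factors of the deposited FPKM were equal in all libraries. The 15958 genes whose mean reached 0.5 FPKM were fitted as log2(FPKM + 0.1) with limma 3.58.1 in R 4.3.3 (group means over 9 libraries, trended prior, Benjamini-Hochberg adjustment). The pseudocount can understate changes of low genes, while a count of 0 in a single library can enlarge them. For AY172581.7, NPCT against PCT gave a log2 fold change of 3.17 where the ratio of fragments was 2.08. Calls required both an adjusted p no higher than 0.05 and a fold above 1.5. Shares and ratios of single libraries were compared by exact permutation tests over libraries (Python 3.11.15), whose smallest p is 0.1. The processing was tested on simulated data.

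Deviations of same-numbered libraries were unrelated (correlations from -0.072 to 0.034), so numbers were not used as pairs. All 13 mRNA and 2 rRNA genes and tRNA genes with at least 10 fragments in every library are given by library. Of the other tRNA genes, only AY172581.7, AY172581.12, AY172581.13 and AY172581.22 are given by counts. Of each nuclear list the member with the smallest adjusted p against vehicle is given. AY172581.7, Atp5me, Pnpt1, Ears2, Uqcrb and Ndufa3 were added after values were seen. Entries that share a symbol were counted once. Members and lists were chosen with earlier results of these data known. Alternatives were other pseudocounts, filters and scalings, limma-voom on fragments, removal of the gene length trend, fits of 2 groups, a replicate block and leaving out each library. Counts of nuclear lists without PCT replicate 3 were added after seeing the data. No sequence of the mitochondrial genome was used here.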

Additional observations from a re-analysis of the deposited data

How the results depend on the processing

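For NPCT against vehicle, the number of mitochondrial genes called was 0 in the reported fit, 1 with a pseudocount of 1, 4 with a mean FPKM of at least 1, 5 after quantile normalization, 6 with limma-voom on fragments, 4 with the gene length trend removed, 12 with only the 2 groups compared and 2 with the replicate block, and 0 to 10 when 1 library was left out (10 without PCT replicate 3). Calls over all genes moved too, from 0.219% to 0.269%, 1.43%, 1.18%, 2.22%, 0.752%, 3.63% and 2.00% in the same order of settings, and to 3.52% without PCT replicate 3. For PCT against vehicle the number of mitochondrial genes called was 3, or 1 without a filter or with only the 2 groups compared, and 1 to 2 with 1 library left out. Of all genes, 2.31% were called there, 1.29% without a filter, 1.80% with only the 2 groups compared, and 1.08% to 2.49% with 1 library left out. For NPCT against PCT the number of mitochondrial genes called was 8, or 3 with only the 2 groups compared, and 3 to 14 with 1 library left out (14 without PCT replicate 3). Of all genes, 5.76% were called there, 2.84% with only the 2 groups compared, and 3.29% to 10.2% with 1 library left out (10.2% without PCT replicate 3). The cause was not tested. The replicate block gave 2 and 7 calls in the comparisons with PCT, where it called 2.02% and 5.55% of all genes. Replicate numbers do not pair the libraries.

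Quantile normalization hides changes of abundant genes that keep their rank. After it the median log2 fold change of the 13 mRNAs was -0.23 for NPCT against vehicle and -0.24 against PCT, with 10 of 13 genes lower in each. With 1 library left out it was -0.66 to -0.54 for NPCT against vehicle, -0.20 to 0.12 for PCT against vehicle and -0.81 to -0.39 for NPCT against PCT. The difference in the share of fragments on the 13 mRNAs then ran from -1.58 to -1.26, from -0.648 to 0.376 and from -1.83 to -0.805 percentage points, and the difference in rRNA fragments per 100 mRNA fragments from -0.0807 to 0.0152, from -0.0681 to 0.147 and from -0.194 to 0.0210. Of 285 alternative values of the 15 mRNA and rRNA genes for each comparison with vehicle, 33 became calls for NPCT, in 8 genes, and 0 for PCT. Among values that were not calls, the sign changed in 3 for NPCT and 29 for PCT. Low counts limit 17 of the 22 tRNA genes.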
